A study of Mus musculus with 6 samples.

Results

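Bone morphogenetic protein (BMP) signalling and the Id genes were followed through 10 genes: the ligands Bmp4 and Bmp7, the receptors Bmpr1a and Bmpr2, the signal transducers Smad1 and Smad5, the inhibitory Smad6, and the target genes Id1, Id2 and Id3. They were chosen by name for their roles in the pathway, with earlier results of these data known, so counts over them are descriptions. All 10 were found among the 27179 genes of the count table and passed the filter on low counts, as did 14199 genes in all. The counts came from RNA sequencing of oligo(dT)-selected RNA from mouse embryonic stem cells of the ES-E14TG2a background. Cells named FLAG-Trim71 (R783H), in which residue 783 of the RNA-binding protein Trim71 is changed, gave 3 libraries (A, B and C), and FLAG-Trim71 cells with the wild-type protein (WT) gave 3 others. The title of the series ties the change to hydrocephalus, and the comparison of R783H with WT asks how the transcriptome differs when Trim71 carries it. Both groups carried the FLAG tag and grew on gelatin in medium with 2% fetal bovine serum, leukaemia inhibitory factor at 1000 U/mL, the GSK3 inhibitor CHIR99021 at 3 uM and the MEK inhibitor PD0325901 at 1 uM. No BMP protein is listed among the components of that medium. The labels do not say whether each kind of cell was a single clone or what the replicate letters stand for, so p-values measure the spread between these libraries, which may be technical.

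BMP ligands bring type I receptors, such as Bmpr1a, together with type II receptors, such as Bmpr2. The activated type I receptor phosphorylates Smad1, Smad5 and Smad9, which join Smad4 and switch on target genes, the Id genes first among them. Id proteins have a helix-loop-helix domain without the basic region that contacts DNA, and they hold E proteins, the basic helix-loop-helix factors Tcf3, Tcf4 and Tcf12, away from DNA. In mouse embryonic stem cells, BMP4 together with leukaemia inhibitory factor is known to support self-renewal, with the Id genes as mediators. Whether that role holds in the medium used here, with CHIR99021 and PD0325901, was not tested. Smad6 is induced by the pathway and inhibits it.

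Total counts per library were 27807385 to 29079670 in R783H and 20894277 to 25174121 in WT, and a floor of 3 counts amounts to 0.0998 to 0.148 CPM (read counts scaled to a common library size). The mRNA of Trim71 stood at 152, 129 and 150.5 CPM in R783H A, B and C and at 131, 131 and 159 CPM in WT A, B and C, with overlapping groups. Its log2 fold change was 0.03 (SE 0.08; adjusted p = 0.743, edgeR), and an offset for length and GC content, described with the receptors, moved it to -0.27 (adjusted p = 0.00214, edgeR). The mRNA level of Trim71 therefore does not check the labels. Of 8 naive stem cell markers none was under 1 CPM throughout, and their summed level was 6145 to 6247 CPM in R783H and 6423 to 6530 CPM in WT, with Tfcp2l1 and Tbx3 called higher and Pou5f1, Nanog and Zfp42 lower. None of the 8 markers in any other list was at 0 in all libraries. Of 8 fibroblast (feeder) markers, 4 stayed under 1 CPM in every library (Col3a1, Dcn, Lum and Postn), and the sum was 3.21 to 4.26 CPM in R783H against 4.03 to 4.80 CPM in WT, with Thy1 called lower among 4 tested.

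The 3 Id genes stood lower in R783H. Fitted levels were 0.449 times the WT level for Id3, 0.549 times for Id1 and 0.524 times for Id2, and in each case every R783H library lay below every WT library. Bmp4 was also lower, while Smad1 and the receptors Bmpr1a and Bmpr2 were higher. Of the 10 genes, 8 were called at an adjusted p under 0.05, 5 of them lower and 3 higher. Over all tested genes 64.5% were called, 30.9% lower and 33.5% higher, and the count of 8 is to be read against that share. A called decrease of at least 1.5-fold was found for 3 of the 10, the Id genes, against 9.54% of all tested genes, and a called increase of at least 1.5-fold for 1, Bmpr2, against 15.1%. The groups did not overlap in CPM for 9 of the 10, against 68.1% of all tested genes. The median log2 fold change of the 10 genes was -0.31, and that of all tested genes was 0.03. In bulk RNA, fewer cells that express a gene and less of its RNA per cell cannot be told apart.

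**Figure D1:**
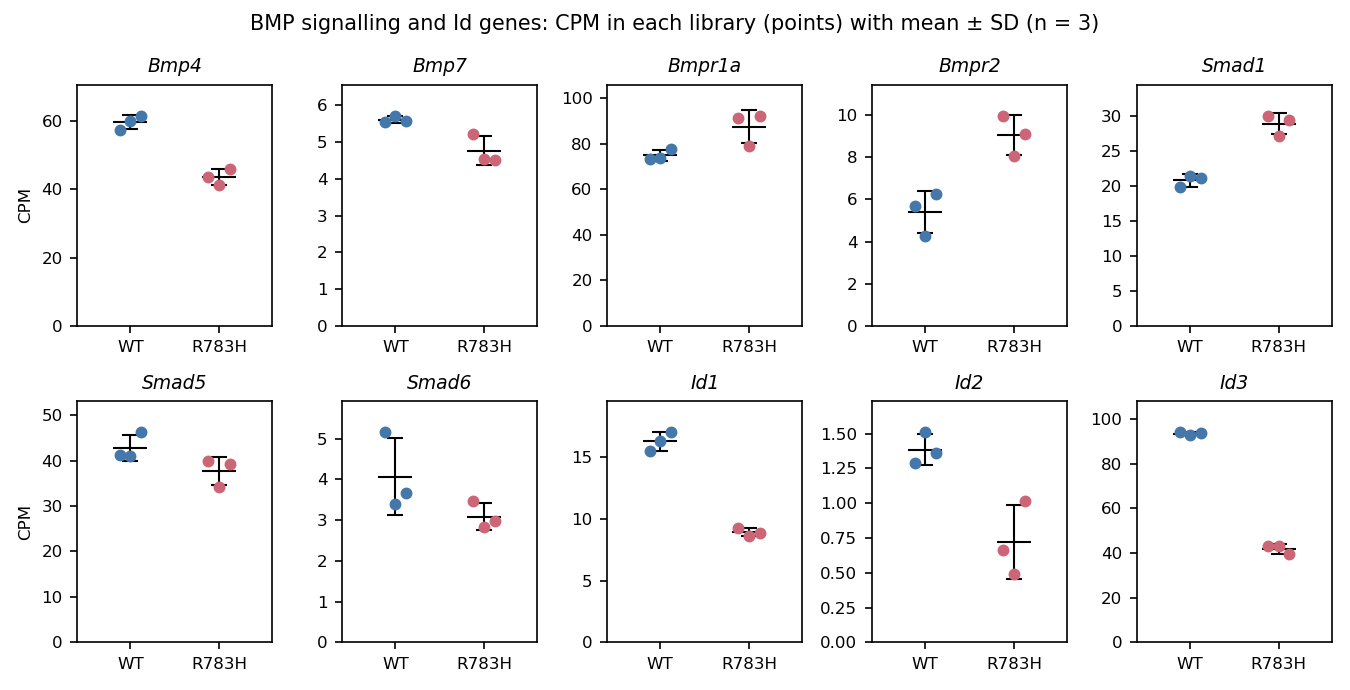
CPM (vertical axes, from 0) of each of the 10 genes in the WT and R783H groups (horizontal axes), with a point per library and bars for the mean ± SD of 3 libraries. Id3 lies between 92.8 and 94.0 CPM in WT and between 39.4 and 43.3 CPM in R783H, and Smad6 is the gene whose groups overlap.

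Letters known to be bound by Smad proteins, not only by those that BMP activates, were looked for in the 250 bases before the start sites that RefSeq gives on GRCm38.p6. This shows what lies before those start sites, which can fall inside a gene as GENCODE M21 bounds it. Windows were given for 8 of the 10 genes (10 windows), without Bmp7 and Id1. The motifs, chosen after the expression values were known, were the letters GGCGCC, an element that reads alike on both strands, and the Smad-binding element GTCTG, which on the opposite strand reads CAGAC; both strands were searched, and the motifs differ in their letters. GGCGCC was present for Id2, Bmpr1a, Bmpr2 and Smad5, and in 9.59% of all 32851 windows. GTCTG was present for Id3 and Smad5, and in 42.2% of all windows. Stretches of at most 30 bases around matches for the genes below are printed 5′ to 3′ on the strand of the gene. The motif is in capitals. Both at Id3 overlap a UTR that GENCODE M21 annotates. Those at Id2 and Bmpr1a lie outside annotated UTRs but within the bounds of each gene in GENCODE M21.
Id2, chr12:25096306-25096335, minus strand: tcaggccccctgGGCGCCcagcgcacactg
Id3, chr4:136143643-136143671, plus strand: tgtcctcggcgtCAGACcagcctaaggaa
Id3, chr4:136143742-136143770, plus strand: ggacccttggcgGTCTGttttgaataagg
Bmpr1a, chr14:34502727-34502756, minus strand: tgcgcgcgcgccGGCGCCtcttgctcgccc
A match is a string of letters and was not tested for binding.

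Id3 (Entrez 15903, chromosome 4, 136143497 to 136145755, GRCm38) was the most abundant Id gene per length. It stood at 43.1, 43.3 and 39.4 CPM in R783H A, B and C and at 94.0, 92.8 and 93.6 CPM in WT A, B and C. The 3 WT libraries lay within a narrow band, and all R783H libraries were far below it. The WT coefficient of variation was 0.643%, under the common biological value of 5.45%, and 3 libraries measure such a spread poorly. The log2 fold change was -1.16 (SE 0.05; adjusted p = 4.46e-08, edgeR quasi-likelihood with Benjamini-Hochberg correction), with a 95% interval from -1.27 to -1.04.

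Id1 (Entrez 15901, chromosome 2, 152736251 to 152737410) was counted 278, 245 and 262 times in R783H and 312, 400 and 362 times in WT, although the WT libraries were the shallower ones. In CPM this was 9.25, 8.63 and 8.85 in R783H against 15.4, 16.3 and 17.0 in WT. The groups were well apart, and the log2 fold change was -0.87 (SE 0.08; adjusted p = 2.57e-06, edgeR). Id1 and Id3 encode closely related proteins that are known to stand in for each other in development.

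Id2 (Entrez 15902, chromosome 12, 25093799 to 25097140) was rare, with counts of 20, 14 and 30 in the R783H libraries A, B and C, whereas WT had 26, 37 and 29. Its level was 0.665, 0.493 and 1.01 CPM in R783H and 1.29, 1.51 and 1.36 CPM in WT. R783H C came closest to the WT libraries, but the groups did not overlap. The log2 fold change was -0.93 (SE 0.26; adjusted p = 0.00924, edgeR), and its 95% interval, from -1.52 to -0.35, was the widest among the 3 genes. Id4, the remaining family member, was named after its values were seen and was not called. It had 2.70 ± 0.198 CPM (SD, n = 3 here and below) in R783H against 2.61 ± 0.220 CPM in WT. Its log2 fold change of 0.05 (adjusted p = 0.793, edgeR) had a 95% interval from -0.27 to 0.36, which holds none of the 3 estimates above. Exons of Id4 overlap the antisense genes A330033J07Rik and Gm49291.

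Taken per kilobase of each gene's longest transcript, Id1, Id2 and Id3 summed to 42.0, 41.5 and 39.0 CPM per kb in R783H A, B and C and to 87.5, 87.4 and 88.6 CPM per kb in WT. Id3 made up 79.1% to 81.5% of that sum in R783H and 82.7% to 84.0% in WT. The ratio of Id3 to Id1 was 4.23, 4.55 and 4.04 in R783H against 5.52, 5.17 and 5.01 in WT, and the groups did not overlap. With 3 libraries a side, an exact two-sided permutation test of this ratio gave p = 0.1, the smallest it allows.

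Marker sums of other cell types differed between the groups too. Those of the mesoderm and trophoblast lists were lower, like Id1, Id2 and Id3, and that of the endoderm list was higher. Calls within these lists are to be read against 30.9% called lower and 33.5% called higher over all tested genes. The sum of 8 mesoderm markers was 7.90 to 8.56 CPM in R783H and 20.5 to 23.1 CPM in WT, with 5 of 6 tested called lower (T, Mixl1, Evx1, Kdr and Fgf8) and Mesp1, Tbx6, Hand1 and Fgf8 under 1 CPM in all libraries. For 8 trophoblast markers the sum was 78.0 to 85.7 CPM in R783H and 113 to 114 CPM in WT, with 3 of 4 tested called lower (Cdx2, Eomes and Tfap2c) and Elf5, Krt7, Hand1 and Plac1 under 1 CPM. The 8 markers of extraembryonic endoderm summed to 10.3 to 11.1 CPM in R783H and 5.18 to 7.62 CPM in WT, with Gata4 and Sox17 called higher among 5 tested and Gata6, Sox7, Foxa2 and Ttr under 1 CPM. Their part in the level of the Id genes was not tested.

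Of the ligands, Bmp4 was abundant and lower in R783H, and Bmp7 was scarce. Bmp4 (Entrez 12159, chromosome 14, 46383520 to 46390669), the ligand best known for its action on embryonic stem cells and on mesoderm formation, stood at 43.6, 41.1 and 45.8 CPM in R783H A, B and C and at 57.4, 59.9 and 61.4 CPM in WT. The groups were separate, and the log2 fold change was -0.45 (SE 0.06; adjusted p = 3.18e-05, edgeR). An antisense gene, Gm15217, shares 89 nt with its exons, and whether the authors' counting used strand is not given in the sources used here.

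Bmp7 (Entrez 12162, chromosome 2, 172868012 to 172940321), a ligand of the same pathway with broad roles in organ formation, had 5.22, 4.55 and 4.52 CPM in R783H A, B and C and 5.54, 5.71 and 5.58 CPM in WT. Although the groups did not overlap, the gene was not called, with a log2 fold change of -0.24 (SE 0.11; adjusted p = 0.0759, edgeR) and a 95% interval from -0.47 to 0.0018. R783H A was the highest of its group, and without it the gene was called (log2 fold change -0.32, adjusted p = 0.0399, edgeR). Per kb, Bmp4 exceeded Bmp7 by a factor of 14.8, 16.1 and 18.0 in R783H and of 18.4, 18.7 and 19.6 in WT.

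Both receptors were higher in R783H, and both have long transcripts. Bmpr2 (Entrez 12168, chromosome 1, 59763400 to 59879014), the type II receptor specific to BMPs, had 9.95, 8.07 and 9.12 CPM in R783H A, B and C and 5.69, 4.28 and 6.23 CPM in WT. WT B was the lowest library, at 105 counts, and the groups did not overlap. The log2 fold change was 0.75 (SE 0.14; adjusted p = 5.92e-04, edgeR). Bmpr1a (Entrez 12166, chromosome 14, 34410734 to 34503341), the main type I receptor of early embryos, had 91.3, 79.1 and 92.2 CPM in R783H and 73.4, 73.9 and 77.8 CPM in WT. R783H B came close to WT C, and the log2 fold change was 0.22 (SE 0.06; adjusted p = 0.00899, edgeR).

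Transcript length and GC content were both taken into account for these receptor results, and their parts were not separated. Across 13763 tested genes with a length, log2 fold changes rose with it (Spearman's rho 0.243; genes are not independent replicates), and the longest annotated transcripts of Bmpr2 and Bmpr1a have 12899 nt and 5956 nt, against 1160 to 1969 nt for Id1, Id2 and Id3. The GC content of these transcripts was 41.0% for Bmpr2 and 41.3% for Bmpr1a, against 54.7%, 45.1% and 55.6% for Id1, Id2 and Id3. With an offset fitted on length and GC content together in each library, which brought rho to 0.0219, Bmpr1a was not called, at -0.0075 (adjusted p = 0.871, edgeR). Bmpr2 moved to 0.32 (adjusted p = 0.0264, edgeR). The Id genes moved little under the same offset, to -1.06 for Id3, -0.77 for Id1 and -0.92 for Id2, all still called. In that fit 7 of the 10 genes were called, 5 lower and 2 higher, against 67.6% of all genes tested in it. An antisense gene, Gm17110, shares 290 nt with the exons of Bmpr1a.

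**Figure D2:**
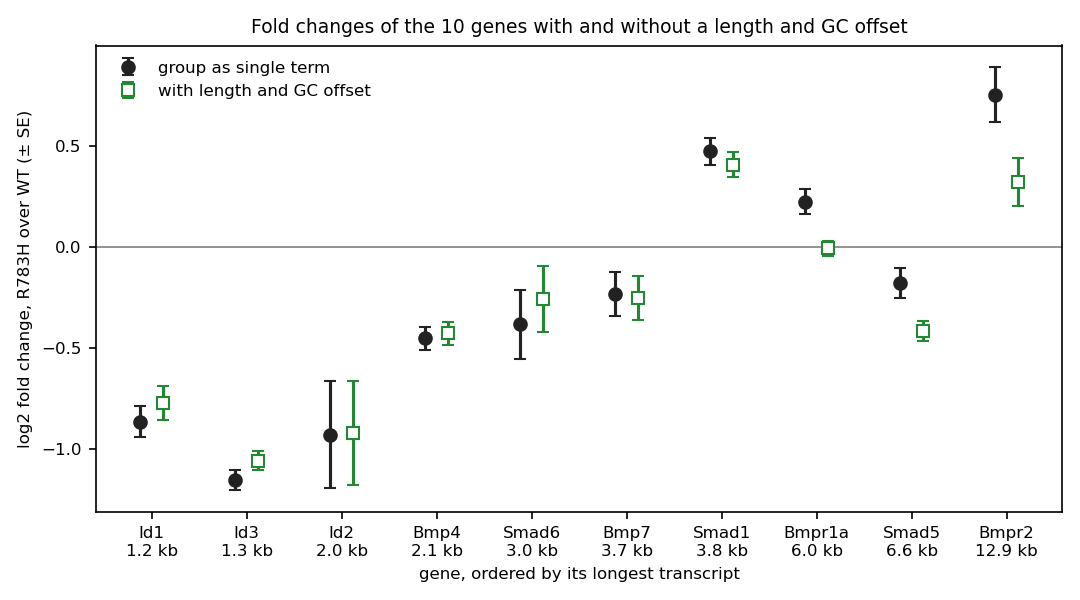
Log2 fold change of R783H over WT ± SE (vertical axis) for the 10 genes, ordered by the length of their longest transcript (horizontal axis, in kb), with group as the single term (filled circles) and with the length and GC offset (open squares). The 3 Id genes, at the short end, stay near -1 in both fits, whereas Bmpr1a moves from 0.22 to about 0 and Bmpr2 from 0.75 to 0.32.

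Smad1 and Smad5, transducers that receive the same signal from type I receptors, moved in opposite directions. Smad1 (Entrez 17125, chromosome 8, 79338395 to 79399518) had 29.9, 27.1 and 29.4 CPM in R783H A, B and C and 19.8, 21.4 and 21.1 CPM in WT. All R783H libraries were above all WT libraries, with a log2 fold change of 0.47 (SE 0.07; adjusted p = 7.78e-05, edgeR), and under the offset it was still called, at 0.41.

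Smad5 (Entrez 17129, chromosome 13, 56703010 to 56742377) had 39.9, 34.2 and 39.2 CPM in R783H A, B and C and 41.2, 41.1 and 46.2 CPM in WT. R783H A lay close to WT B, and the call was marginal, with a log2 fold change of -0.18 (SE 0.07; adjusted p = 0.0468, edgeR). It was lost without WT A (adjusted p = 0.0545), without WT B (adjusted p = 0.0581) or without WT C (log2 fold change -0.13, adjusted p = 0.18, all edgeR), with library-size scaling alone (-0.10, adjusted p = 0.268), with upper-quartile factors (adjusted p = 0.0642) and with at least 10 counts required in every library (adjusted p = 0.0569). The transcript is long, at 6584 nt, and with the length and GC offset the decrease was larger, at -0.42 (adjusted p = 2.23e-06, edgeR). A gene on the same strand, Gm27301, shares 100 nt with its exons.

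Within each library, the ratio of Smad1 to Smad5 per kb was 1.31, 1.38 and 1.31 in R783H A, B and C and 0.836, 0.908 and 0.799 in WT. The more abundant of the pair per kb was thus Smad5 in every WT library and Smad1 in every R783H library. That exchange rests on the lengths of the longest transcripts. In CPM Smad5 averaged more than Smad1 in both groups, at 37.8 against 28.8 in R783H and 42.8 against 20.8 in WT. The 5 ratios computed within libraries do not depend on library scaling, but they were not corrected for the trend with transcript length. All 5 separated the groups. The share of other gene pairs whose ratios do so was not computed, and single genes did not overlap for 68.1% of all tested genes. Each of the 5 ratios gave an exact two-sided permutation p of 0.1, the smallest possible for 3 against 3 libraries (0.1 after Benjamini-Hochberg adjustment over the 5). The ratio of Bmpr1a to Bmpr2 was 19.9, 21.2 and 21.9 in R783H and 27.9, 37.4 and 27.0 in WT, with WT B apart from the other libraries.

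Smad6 (Entrez 17130, chromosome 9, 63953076 to 64022059), the inhibitory Smad of the BMP branch, had 3.46, 2.82 and 2.97 CPM in R783H A, B and C and 5.15, 3.38 and 3.66 CPM in WT. WT A was high, R783H A exceeded WT B, and the groups overlapped. Smad6 was not called (log2 fold change -0.39, SE 0.17; adjusted p = 0.0693, edgeR). Without WT A the difference was -0.19 (adjusted p = 0.325, edgeR), while without R783H A (-0.49, adjusted p = 0.0468) or without WT B (-0.51, adjusted p = 0.0366) the gene passed the threshold.

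**Figure D3:**
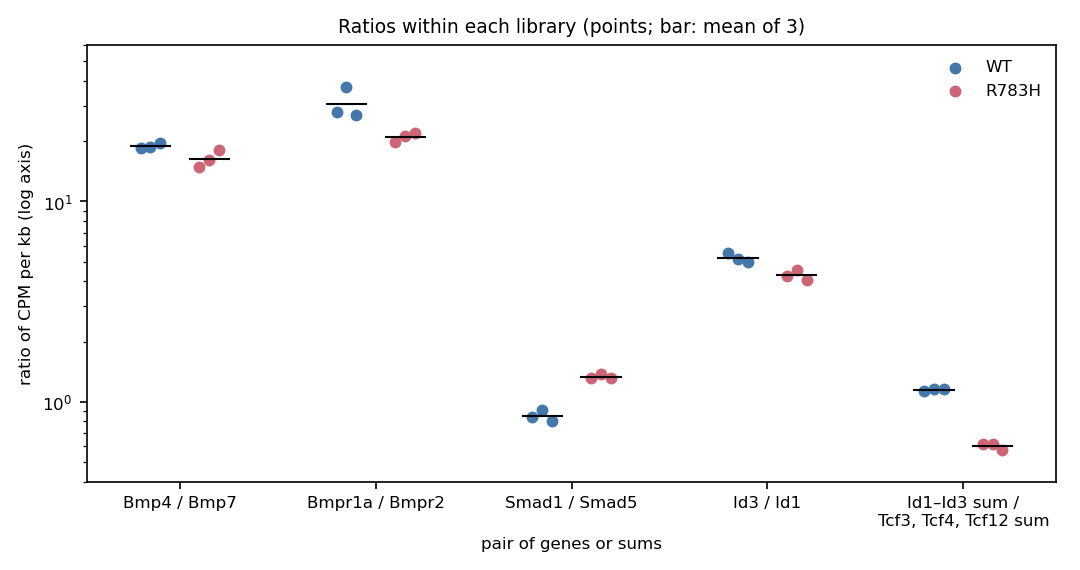
Ratios of CPM per kb within each library on a logarithmic vertical axis, for the 5 pairs of genes or sums on the horizontal axis, with a point per library and a bar for the mean of 3. Smad1 over Smad5 lies under 1 in WT and above 1 in R783H, and the summed Id genes over the summed E proteins lie at 1.14 to 1.16 in WT and 0.574 to 0.620 in R783H.

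Levels of the 10 genes per kb of longest transcript spanned a wide range, on the assumption that this transcript is the one expressed. In WT the order of mean CPM per kb was Id3 (73.1), Bmp4 (28.9), Id1 (14.0), Bmpr1a (12.6), Smad5 (6.50), Smad1 (5.50), Bmp7 (1.53), Smad6 (1.37), Id2 (0.703) and Bmpr2 (0.419). Only Bmp7 and Smad6 overlapped among neighbours in that order. In R783H the order was Id3 (32.8), Bmp4 (21.1), Bmpr1a (14.7), Id1 (7.68), Smad1 (7.64), Smad5 (5.74), Bmp7 (1.30), Smad6 (1.04), Bmpr2 (0.701) and Id2 (0.368), and only Id1 and Smad1 overlapped among neighbours. Id1 thus moved from above Bmpr1a to below it, and Id2 and Bmpr2 exchanged the lowest places.

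Beyond the 10 genes, 59 others of the pathway were listed, of which 33 were tested. Calls were made for 14 that stood higher and 9 that stood lower, beside 64.5% called over all tested genes. The median log2 fold change was 0.05 for the list and 0.03 for all tested genes. With the length and GC offset the counts were 11 higher and 10 lower. Of the 26 that were not tested, 5 had no count in any library.

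Of 7 receptors and co-receptors tested, 6 were called higher and 1 lower, beside 33.5% and 30.9% over all tested genes. Rgma, a membrane-anchored co-receptor of BMPs, rose from 10.6 ± 0.909 to 17.1 ± 0.696 CPM (log2 fold change 0.69), and Acvr2a, a type II receptor shared with activin, from 10.2 ± 0.588 to 15.4 ± 2.15 CPM (0.60). Acvr1, a type I receptor, rose by 0.40, the co-receptors Rgmb by 0.37 and Eng by 0.30, and the type II receptor Acvr2b by 0.25 on the log2 scale. With the length and GC offset Acvr2a moved to 0.36, still called, and Rgmb was not called (0.16, adjusted p = 0.126, edgeR). Acvr2b was not called without R783H A or without WT B (0.18 and 0.19, both with an adjusted p of 0.0766, edgeR). Acvrl1, named after its values were seen, was the exception, with a change of -0.73 at 1.25 CPM or less on average in either group. Exons of Rgma, Acvr2a, Acvrl1 and Eng share sequence with an antisense gene.

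Of 16 secreted proteins that capture or modulate ligands outside the cell, 6 were tested, with 4 called higher, Nbl1 called lower and Dand5 not called, again beside 33.5% and 30.9% over all tested genes. Fst, which binds activin and BMPs, was at 54.7, 45.1 and 49.9 CPM in R783H A, B and C and at 30.9, 35.5 and 33.4 CPM in WT, a log2 fold change of 0.58 (adjusted p = 5.63e-05, edgeR). Twsg1, a modulator of BMP binding by chordin, rose from 33.2 ± 1.18 to 47.3 ± 3.73 CPM (0.51). Fstl1 changed by 0.15, and that call was lost with the length and GC offset (0.07, adjusted p = 0.108), without R783H C (0.12, adjusted p = 0.0678) or without WT B (0.13, adjusted p = 0.0743, all edgeR). Chrd itself (0.70), Nbl1 (-1.39) and Dand5 (0.24, adjusted p = 0.272, edgeR), named after their values were seen, averaged 4.36 CPM or less in both groups. Noggin (Nog), named after its values were seen, was too rare to test, with 45 counts over all libraries. Exons of Fst and Chrd overlap an antisense gene.

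Among the inhibitors inside the cell or at its surface, 3 of 8 were called higher and 2 lower, beside 33.5% and 30.9% over all tested genes. Skil, a nuclear repressor of Smad complexes, was at 54.6, 46.2 and 54.1 CPM in R783H A, B and C and at 29.1, 30.7 and 32.9 CPM in WT (log2 fold change 0.74; 0.47 with the length and GC offset, both called). Tob1 rose by 0.24, and Smurf2, a ubiquitin ligase, by 0.18, which the offset brought to 0.0061 (adjusted p = 0.907, edgeR); without R783H A the adjusted p of Smurf2 was 0.0536 (edgeR). Bambi, a decoy receptor without a kinase domain that the pathway induces, fell from 11.8 ± 0.573 to 8.67 ± 0.945 CPM (-0.45). Ppm1a, a phosphatase of receptor-activated Smads, changed by -0.25, and by -0.53 with the offset.

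Of the other Smads, Smad7, an inhibitory Smad shared with the TGF-beta branch, fell from 148 ± 3.46 to 128 ± 6.70 CPM (log2 fold change -0.22, adjusted p = 0.00235, edgeR). Smad4, the shared partner, and Smad9, the remaining BMP-activated Smad, were named after their values were seen. Smad4 had 109.6 ± 0.738 CPM in R783H against 109 ± 1.53 CPM in WT, was not called (adjusted p = 0.898, edgeR), and the 95% interval of its log2 fold change ran from -0.08 to 0.10. Smad9 had 108 counts in all and was not called (adjusted p = 0.347, edgeR). Of 12 other ligands just 2 were tested. Bmp8b and Bmp8a were named after their values were seen. Bmp8b was called lower (-1.33) with 0.442 ± 0.0600 CPM in R783H against 1.12 ± 0.0692 CPM in WT, with exons that overlap antisense genes, and Bmp8a was not called (adjusted p = 0.209, edgeR).

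Of 12 further target genes 7 were tested, with 3 called lower and 1 higher, beside 30.9% and 33.5% over all tested genes. Dusp9, a phosphatase of ERK kinases that BMP is known to induce in mouse embryonic stem cells, was at 13.8, 16.9 and 14.9 CPM in R783H A, B and C and at 68.7, 64.2 and 61.9 CPM in WT. These groups lay far apart, with a log2 fold change of -2.10 (SE 0.08; adjusted p = 1.31e-08, edgeR), the largest decrease among all pathway genes tested. Msx2, a homeobox gene, fell from 5.48 ± 0.289 to 3.39 ± 0.238 CPM (-0.69, adjusted p = 3.08e-04, edgeR). Hey1 (-0.82) and Gata3 (0.73), named after their values were seen, averaged at most 2.34 CPM in either group. Exons of Gata3 overlap other genes at the same locus, and Msx2 shares near-identical stretches with other genes. The list thus held no single direction.

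**Figure D4:**
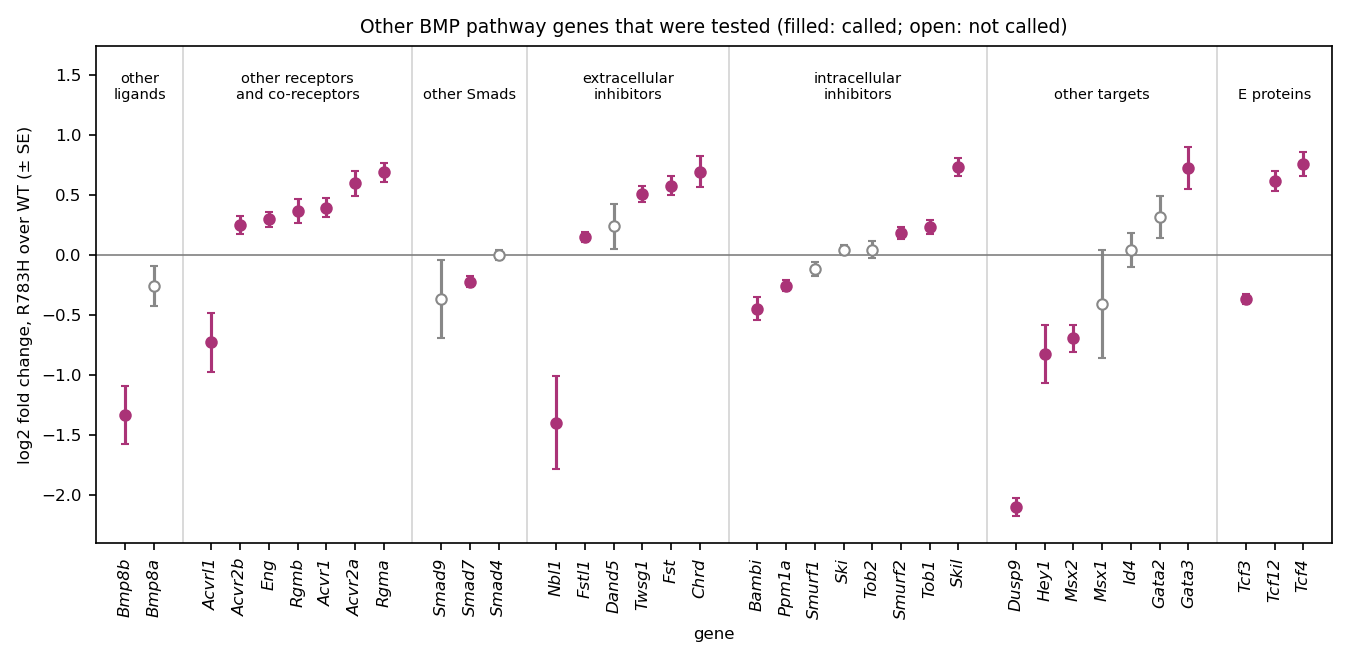
Log2 fold change of R783H over WT ± SE (vertical axis) for the other BMP pathway genes that were tested and for the E proteins (horizontal axis, grouped by role), with filled points for called genes and open points for the rest. Receptors and co-receptors lie above 0 with the exception of Acvrl1, and Dusp9 lies lowest at -2.10.

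The E proteins, which Id proteins bind, did not share a direction. Tcf3 fell from 196 ± 4.56 to 152 ± 3.66 CPM (log2 fold change -0.36, adjusted p = 2.05e-05, edgeR). Tcf4 was at 99.98, 77.2 and 95.7 CPM in R783H A, B and C and at 48.3, 52.0 and 60.6 CPM in WT, a log2 fold change of 0.76, and Tcf12 rose from 22.5 ± 2.29 to 34.5 ± 2.73 CPM (0.62). All 3 kept their call and direction with the length and GC offset, at -0.24, 0.43 and 0.40. Per kb, summed Id1, Id2 and Id3 over summed Tcf3, Tcf4 and Tcf12 came to 0.616, 0.620 and 0.574 in R783H A, B and C and to 1.14, 1.16 and 1.16 in WT. The ratio was lower in every R783H library than in every WT library (exact two-sided permutation p = 0.1, the smallest possible), and its level rests on the length of the longest transcript of each gene.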

How the data were processed

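The authors deposited a table of raw read counts per Entrez gene, 1 column per library. Per the submitters' processing notes, HISAT2, SAMtools, CASAVA 1.4 and the build mm10 were used; the counting tool, its annotation and its use of strand are not given in the sources used here. Symbols came from RefSeq (GRCm38.p6), coordinates, lengths and exon overlaps from GENCODE M21 on GRCm38.

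Libraries were grouped by title. Genes passing edgeR's filterByExpr (minimum count 10, minimum total 15) were scaled by TMM and tested across all genes with edgeR 4.0.16 in R 4.3.3 (quasi-likelihood, group as the single term, Benjamini-Hochberg over all tested genes). CPM are counts scaled to a common, TMM-adjusted library size. The SE is the log2 fold change divided by the root of F. The common biological coefficient of variation was 5.45%. Counting error alone understates the uncertainty, since reads lacked molecular identifiers. On simulated data of 14199 genes the fit called 90 of 100 planted 2-fold and 78 of 100 planted 1.5-fold changes, with 8 calls among unchanged genes. Changes were planted in a far smaller share of genes than the 64.5% called in the data, so these rates may not carry over. The simulated spread was taken from these libraries.

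The alternatives, 17 in all, were RLE, upper-quartile or no scaling factors, 2 other filters, DESeq2 1.42.0, limma-voom 3.58.1, a replicate block, a length and GC offset (splines fitted in each library, with and without the block), equal depth, and leaving out each library. The 10 genes and the lists were chosen with earlier results of these data known. Named were all 10 genes, Trim71, and called genes of the other lists averaging at least 5 CPM in the higher group; any other is marked.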

Additional observations from a re-analysis of the deposited data

How the results depend on the processing

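Over the 17 alternatives, 158 of 170 fold changes of the 10 genes kept their direction and their side of the threshold, and those of Bmp4, Bmpr2, Smad1, Id1, Id2 and Id3 did so throughout. Id3 ran from -1.20 to -1.06, Id1 from -0.91 to -0.77 and Id2 from -1.26 to -0.75. The number of the 10 genes called ran from 7 to 10. Bmpr1a turned to -0.0075 with the length and GC offset and to -0.0078 with the offset and the replicate block. The offset removes the trend with length and is fitted on GC content as well. The cause of that trend and the separate part of GC content were not tested. Trim71 turned to -0.27 under both fits with the offset, and leaving out each library gave -0.022 to 0.13. Of 340 values of the other 20 named genes, 329 kept their call and 0 reversed.

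Replicate letters did not pair the libraries: deviations from the group mean correlated across genes at -0.07 for A, 0.0068 for B and 0.0851 for C. With the replicate block 9 of the 10 genes were called, Smad6 being added (adjusted p = 0.0306, edgeR), and 9260 genes in all. Id2 had 14 to 37 counts per library, and at equal depth its log2 fold change was -0.94 (adjusted p = 0.0115, edgeR).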
